A study of Drosophila melanogaster with 3 samples.

Results

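Of 34 listed synaptic vesicle and active zone genes, 26 were analysed in single-cell RNA sequencing of AKHR+ neurons, the brain neurons that carry the receptor of the hunger hormone AKH. The members were chosen by symbol, from textbook roles in transmitter release, and matched to the FlyBase IDs of the deposited tables, which held 11922 genes. The other 8 (nSyb, alphaSnap, gammaSnap1, Cadps, Rbp, CASK, EndoA and Synj) are not analysed here, so each count covers only those analysed. The members were grouped by role into fusion machinery (7 of 11 listed genes analysed), active zone (6 of 8), calcium sensing (5 of 5) and endocytosis (5 of 7), with 3 further genes of the vesicle pool and the terminal cytoskeleton.

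The study examined how high-fat diet changes the response of AKHR+ neurons to hunger, and single cells were sequenced to learn which genes these neurons express. All 3 libraries belonged to a single group, made from flies that carried nSyb-AD-AKHR-BD-GAL4;UAS-mCD8gfp and were 5 days old, with normal food. Membrane-bound GFP was thus made where the promoters of AKHR and of the pan-neuronal gene nSyb were both active, and marked cells were drawn from dissected brains with a glass pipette. The libraries are called cells 1, 2 and 3 after their labels, although a treatment note speaks of pooling, so whether each held 1 cell is not settled, and no label says whether they came from different flies.

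At a nerve terminal, vesicles filled with transmitter dock at the active zone, a protein scaffold that holds calcium channels beside the release site. When calcium enters, synaptotagmins sense it, and SNARE proteins on the vesicle and on the plasma membrane zip together and fuse the membranes. The ATPase NSF then takes the spent SNARE complexes apart, and the vesicle membrane is recovered by clathrin- and dynamin-dependent endocytosis.

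Levels are given as FPKM, a fragment number divided by exon length and by the mapped total, which allows genes of a cell to be set side by side. A gene was called detected at an FPKM of at least 1. The depth, estimated from the spacing of low values, was 6620000, 6240000 and 6520000 fragments in cells 1, 2 and 3. The number of genes detected was lowest in cell 1 (4389, against 6046 and 5626), so cell 1 stood apart in this respect.

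The cell type named by the labels was checked with marker genes. Of 6 neuronal markers analysed, 6 were detected in all 3 cells, with a summed FPKM of 1131, 1105 and 779. The 3 of them that are not members were elav at an FPKM of 4.36, 54.6 and 50.1, fne at 125, 146 and 75.8, and Appl at 193, 279 and 119 in cells 1, 2 and 3. AkhR itself was at 14.7, 1.90 and 2.52. Tdc2 (0, 13.3 and 8.58) and Tbh (0, 7.34 and 12.6), whose enzymes make octopamine, were both listed at 0 in cell 1. Markers of other cells were present too. Of 6 glial markers 5 were detected in all 3 cells, with a summed FPKM of 2717, 1940 and 2939. This sum lay mostly in nrv2 (1585, 770 and 1764) and wrapper (732, 323 and 568), both lowest in cell 2. Instead, repo (3.77, 51.5 and 9.63) and Gs2 (370, 615 and 469) were highest in cell 2. So were Eaat1 (21.3, 130 and 127) and moody (4.54, 50.1 and 0.613). Of 10 photoreceptor markers 9 were detected in all 3 cells, with a summed FPKM of 4166, 8456 and 2947. Of 7 fat body markers 5 were detected in all 3 cells, Fbp1 and Fbp2 being listed at 0 in each, and the summed FPKM of 20595, 29808 and 33535 lay mostly in the yolk protein genes. Hemocyte markers (2 of 3 detected in all 3 cells) summed to 36.3, 91.6 and 15.8, and muscle markers (0 of 6) to 46.8, 91.9 and 1.37. The muscle sum lay mostly in wupA (46.7, 74.9 and 0.790), and Act88F was at 0 in each cell. The glial, photoreceptor and fat body sums exceeded the neuronal sum in each cell, whereas the hemocyte and muscle sums did not. Photoreceptors are themselves neurons and use many of the members, and the part of these other sources in the members' values was not tested.

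The synaptic genes were expressed broadly and at high levels. Of the 26 members, 23 were detected in all 3 cells, against 31.1% of the 11922 genes. By cell, 23 members were detected in cell 1 (36.8% of all genes), 25 in cell 2 (50.7%) and 26 in cell 3 (47.2%). At the stricter FPKM of at least 10, 20 members were still detected in all 3 cells, where 20.6% of all genes were. Ranked among all genes of the same cell, 19 of 26 members stood at or above the 75th percentile in every cell (14.6% of all genes). The median percentile of the members was 87.5, 92.0 and 85.7 in cells 1, 2 and 3.

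The members together made up 0.864%, 0.747% and 0.667% of the summed FPKM of cells 1, 2 and 3. Their median level, as the mean of log2(FPKM + 1) over the cells, was 6.24. The same median was 3.38 over the 7207 genes above 0 in at least 1 cell and 5.24 over the 3709 genes detected in all 3 cells. In the plot of member levels, the roles followed the same order in each cell when ranked by their median FPKM. Fusion machinery was highest (218, 234 and 208), followed by calcium sensing (106, 158 and 125), vesicle pool and cytoskeleton (63.5, 77.97 and 39.5), endocytosis (21.8, 47.7 and 35.3) and active zone (13.7, 36.9 and 24.3). Each role held only 3 to 7 genes. The endocytosis median counts stnA and stnB as separate genes, although the annotation gives them the same exons. In cell 3 the order of vesicle pool and endocytosis (39.5 and 35.3) depends on how that pair is counted.

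**Figure D1:**
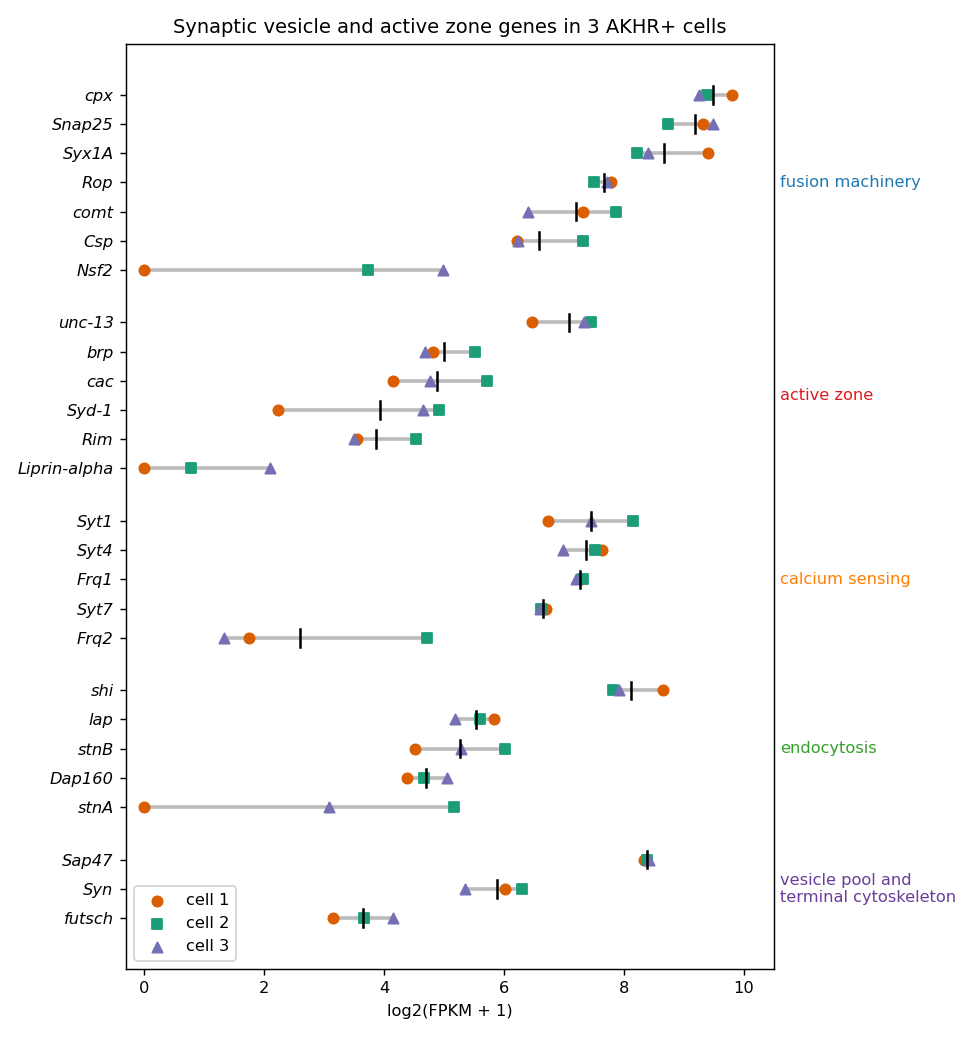
Level of each of the 26 synaptic genes, as log2(FPKM + 1), in cells 1 (circles), 2 (squares) and 3 (triangles), grouped by role. Grey bars span the 3 cells, black ticks are means, and no mean is drawn for Nsf2, Liprin-alpha and stnA, which are listed at 0 in cell 1. By mean, the fusion genes cpx, Snap25 and Syx1A are at the top, with Sap47 above Syx1A in cells 2 and 3, and the active zone genes other than unc-13 lie well below them.

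By mean level, the plasma membrane SNAREs and their clamp were the most abundant members. The gene cpx encodes complexin, a small protein that binds assembled SNARE complexes, holding back spontaneous fusion and promoting fusion triggered by calcium. It had the highest mean level of the members, with an FPKM of 892, 669 and 610.0 in cells 1, 2 and 3 (mean 724 ± 149, SD, n = 3). In the BDGP6 annotation the gene occupies positions 4280221 to 4304604 of chromosome 3R, plus strand, with 21 annotated transcripts. Snap25, a SNARE anchored on the plasma membrane, was at 636, 426 and 719 (mean 593 ± 151). It spans 225 kb near the centromeric end of chromosome arm 3L, from 24074180 to 24299205, of which only 2.28 kb is exon. Syx1A, the neuronal syntaxin with which Snap25 pairs, was at 675, 296 and 335 (mean 436 ± 209) and was the member of this trio that differed most between cells. These 3 genes stood at or above the 97.9 percentile of all genes in every cell. Their order was not fixed, however, and in cells 2 and 3 Syx1A lay below the vesicle protein gene Sap47 (334 and 340), by less than the spread of Syx1A between cells. The ratio of Snap25 to Syx1A was 0.941, 1.44 and 2.14 in cells 1, 2 and 3, and the mean log2 difference between cpx and Snap25 was 0.30 ± 0.47 (SD, n = 3).

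Regulators of the SNAREs were lower, and of them only Rop was steadier between cells than cpx and Snap25. Rop, the Sec1/Munc18 protein that binds syntaxin, was at 218, 181 and 208 (mean 202 ± 19.4) and differed least between cells of the fusion genes. The ATPase gene comt, the fly NSF, was at 159, 234 and 83.5 (mean 159 ± 75.01), highest in cell 2. Csp, a vesicle chaperone that keeps Snap25 folded in mammals, was at 73.7, 158 and 74.1 (mean 102 ± 48.7), again highest in cell 2. Nsf2, the second fly NSF gene, was listed at 0 in cell 1 and was at 12.2 and 30.7 in cells 2 and 3. At the estimated depth, 3 fragments would give Nsf2 an FPKM of 0.155 in cell 1, the limit that a listed 0 allows.

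Active zone genes had the lowest median of the roles. unc-13, the priming factor that readies docked vesicles, was the exception, with an FPKM of 87.4, 174 and 160 (mean 140.3 ± 46.4, SD, n = 3). It lies on chromosome 4 from 867824 to 912331, and 28.4% of its exon bases are shared with other annotated features, among them 3 antisense or noncoding genes and several transposon insertions. The library kit does not mark strand, so reads from such features cannot be told apart from those of unc-13. The scaffold gene brp, whose protein builds the electron-dense T-bar, was at 27.2, 44.5 and 24.6 (mean 32.1 ± 10.8). The calcium channel gene cac, which encodes the pore of the presynaptic channel, was close to it at 16.6, 51.5 and 26.3 (mean 31.5 ± 18.0). Rim, which links vesicles and channels to the scaffold, was at 10.7, 22.2 and 10.3 (mean 14.4 ± 6.76). The ratio of Rim to brp was 0.393, 0.499 and 0.419 in cells 1, 2 and 3, the steadiest of the ratios to brp that were computed. That of cac to brp was 0.611, 1.16 and 1.07, and that of unc-13 to brp was 3.21, 3.91 and 6.49.

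Of the genes that begin active zone assembly, Syd-1 was scarce in cell 1, whereas Liprin-alpha was low in every cell. Syd-1 (RhoGAP100F in the annotation), an early organiser of the presynaptic site, was at 3.70, 29.2 and 24.0 (mean 19.0 ± 13.5, SD, n = 3). Liprin-alpha, the scaffold that acts with it, had the lowest mean level of the members and was listed at 0 in cell 1. It was at 0.72 in cell 2 and 3.30 in cell 3, which rests on about 22.1 fragments (95% Poisson interval 13.8 to 33.3) and 106 fragments (86.8 to 128). Of the 6 active zone genes, 5 were highest in cell 2 and 0 in cell 1. Over the genes above 0 in at least 1 cell, 39.3% were highest in cell 2 and 27.1% in cell 1. The summed FPKM of the role was 146, 322 and 248 and lay mostly in unc-13 (87.4, 174 and 160). That of the fusion machinery was 2655, 1976 and 2060, highest in cell 1, and lay mostly in cpx, Snap25 and Syx1A. Of the 7 fusion genes, 3 were highest in cell 1, 2 in cell 2 and 2 in cell 3. Their median FPKM (218, 234 and 208) was highest in cell 2, so the contrast in sums rests on few genes. The summed FPKM of the photoreceptor markers was highest in cell 2 as well, as were 7 of the 10 single markers, and their part in the active zone values was not tested.

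Calcium sensors were abundant in all 3 cells, with 1 exception. Syt1, the sensor for fast synchronous release, was at 106, 285 and 174 (mean 188 ± 90.3, SD, n = 3). Syt4, which in the fly is best known from postsynaptic vesicles, was at 197, 182 and 125 (mean 168 ± 38.0). Syt7, a sensor of high calcium affinity, was at 103, 97.3 and 96.3 (mean 99.0 ± 3.78), and with this its log2 range between cells was only 0.10. Frq1 encodes a frequenin, a calcium sensor of the EF-hand type that modulates release, and was almost as even at 155, 158 and 145 (mean 153 ± 6.61). Its neighbour Frq2, which lies 2867 bases further along chromosome X on the same strand, was at 2.37, 25.3 and 1.51 (mean 9.71 ± 13.5). Only cell 2 held Frq2 above an FPKM of 10. About 50.6, 508 and 31.8 fragments lay behind these values (95% Poisson intervals 38.0 to 67.1, 465 to 554 and 21.9 to 45.2). The difference between cell 2 and the others thus exceeds the counting error of sequenced fragments. Variation from amplification is not covered by these intervals. Frq1 and Frq2 are close paralogs, and how the counting divided reads that match both is not given in the sources used here.

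The endocytic genes were led by shi, which encodes dynamin, the GTPase that cuts vesicles from the membrane. It was at 400.0, 224 and 240 (mean 288 ± 97.4, SD, n = 3). The clathrin adaptor gene lap, the fly AP180, was at 55.9, 47.7 and 35.3 (mean 46.3 ± 10.4), and Dap160, the intersectin scaffold that gathers dynamin, was at 19.7, 24.4 and 32.2 (mean 25.4 ± 6.30). The cargo adaptor gene stnB was at 21.8, 63.6 and 37.7 (mean 41.0 ± 21.1). Its partner stnA was listed at 0 in cell 1 and was at 34.7 and 7.51 in cells 2 and 3. The annotation gives stnA and stnB exactly the same exons (100% overlap), since both proteins are read from shared transcripts on chromosome X. Their separate values therefore depend on how the counting divided the same fragments, and their sum was 21.8, 98.3 and 45.2. It too was lowest in cell 1 and highest in cell 2.

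Of the vesicle pool genes, Sap47, a synapse-associated protein found on vesicles, was the steadiest of all 26 members. Its FPKM was 320, 334 and 340 (mean 331 ± 10.3, SD, n = 3). Syn, the synapsin that tethers vesicles to the cytoskeleton, was at 63.5, 77.97 and 39.5 (mean 60.3 ± 19.4). The MAP1B-like gene futsch, which bundles microtubules in the terminal, was at 7.86, 11.7 and 16.8 (mean 12.1 ± 4.46), with about 1080, 1519 and 2268 fragments because its mean annotated transcript is 20.8 kb long.

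When all members were ordered by mean level, neighbours in the order were mostly not separated. Of the 25 neighbouring pairs, 3 differed in the same direction in every cell by more than the SD of their within-cell difference. These were shi above Rop (0.46 ± 0.36 on the log2 scale), Csp above Syn (0.70 ± 0.43) and Syn above lap (0.35 ± 0.30). The order as a whole was nevertheless alike from cell to cell. Spearman's correlation across the 26 members was 0.936 between cells 1 and 2. It was 0.947 between cells 1 and 3 and 0.926 between cells 2 and 3. For these pairs it was 0.934, 0.957 and 0.943 over the 23 members detected in all 3 cells. Over the 3709 genes detected in all 3 cells it was 0.584, 0.657 and 0.722. The SD of the mean log2 level was 1.77 over these genes and 1.89 over the 23 members. These genes were not matched to the members by level (median 5.24, against 6.24 for the 26 members) or by length. The part of level and length in the difference was not tested. These correlations are across genes, which share library, length model and amplification within a cell, and no p-value is attached.

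**Figure D2:**
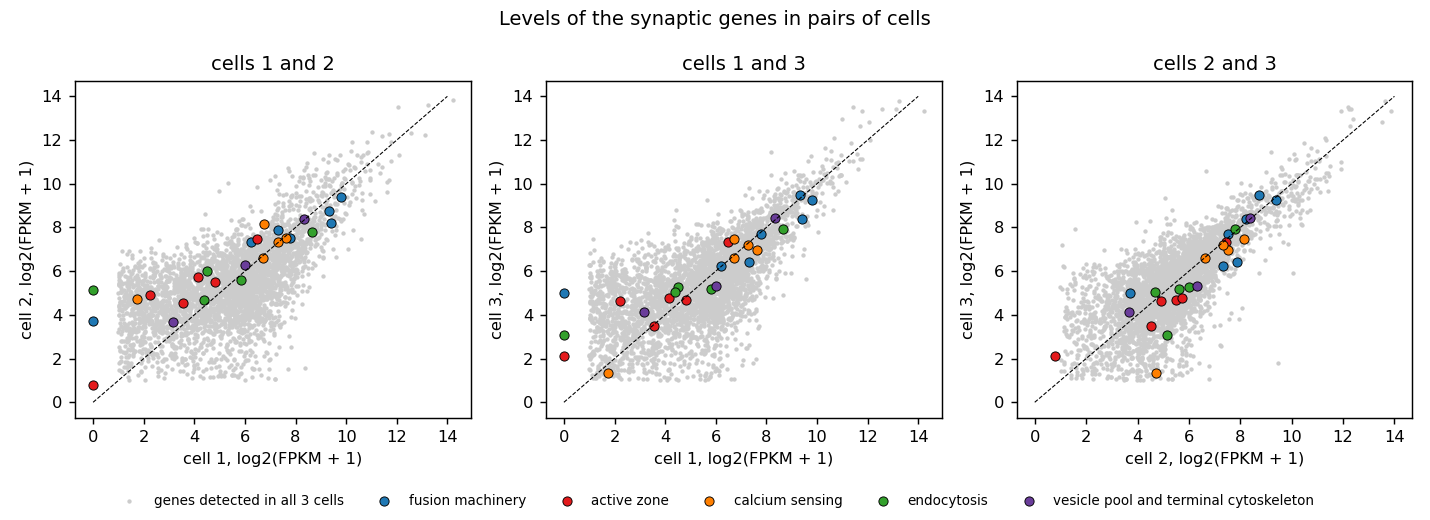
Levels of the 26 synaptic genes (coloured by role) in each pair of cells, as log2(FPKM + 1) on both axes, over the genes detected in all 3 cells (grey). The dashed line marks equal levels, and the synaptic genes lie along it, apart from the 3 members listed at 0 in cell 1, Frq2 and, in the panels with cell 1, Syd-1.

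The spread between cells was therefore examined gene by gene. The median log2 range between the highest and lowest cell was 0.99 over the 26 members and 0.96 over the 23 detected in all 3 cells, where it was 1.59 over all 3709 genes detected in all 3 cells. A range of at most 1, meaning no more than a doubling of FPKM + 1, was found for 13 of the 23 members and for 26.8% of those 3709 genes. Ranges were narrower among genes of higher level. Among the 13 members at or above the median member level, 9 had a range of at most 1, and among the 1021 genes detected in all 3 cells at or above that level the share was 43.2%. The median range of those 13 members was 0.75, and that of the 1021 genes, which were not matched by length, was 1.11. The narrowest ranges were those of Sap47 (0.09), Syt7 (0.10), Frq1 (0.12) and Rop (0.27).

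**Figure D3:**
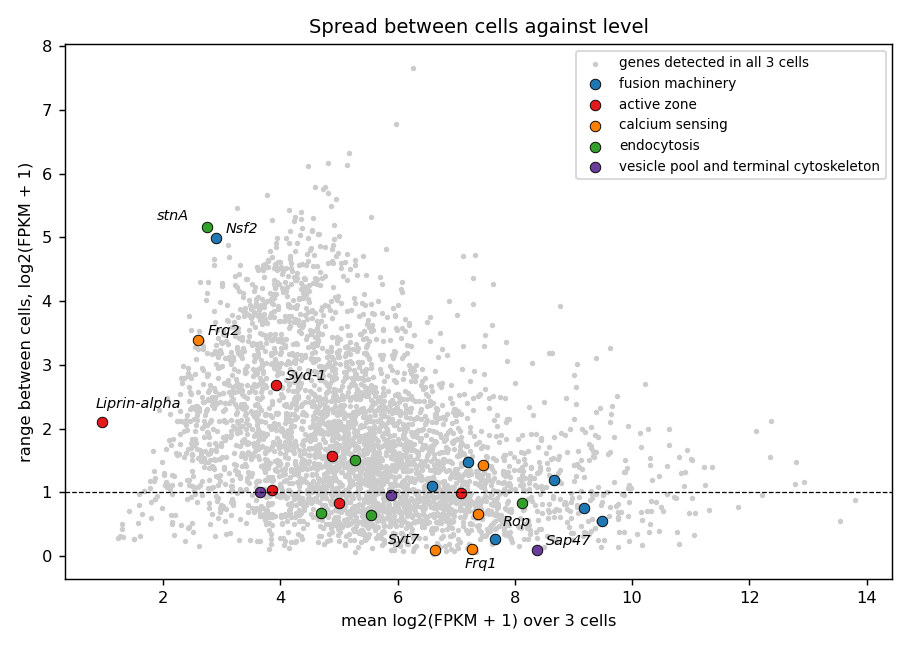
Range between the highest and lowest of the 3 cells against mean level, both on the log2(FPKM + 1) scale, for the 26 synaptic genes (coloured by role) and all genes detected in all 3 cells (grey). The dashed line marks a range of 1. Sap47, Syt7, Frq1 and Rop lie at the lower edge, while stnA, Nsf2, Frq2, Syd-1 and Liprin-alpha have ranges above 2.

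The widest ranges were found for stnA (5.16), Nsf2 (4.99), Frq2 (3.39), Syd-1 (2.68) and Liprin-alpha (2.10). In 4 of these 5 genes cell 1 was the lowest, and the 3 members listed at 0 were listed so in cell 1. Of the 23 members detected in all 3 cells, 9 were lowest in cell 1, as were 38.5% of all genes so detected. Cell 1 lacked other genes too, since 18.6% of the 4968 genes detected in both other cells were listed at 0 in it. The corresponding shares were 3.79% for cell 2 and 4.61% for cell 3. Of the 25 members detected in both other cells, only Nsf2 and stnA were listed at 0 in cell 1. Liprin-alpha, at 0.72 in cell 2, is outside that set. Of the 23 members detected in all 3 cells, 7 were highest in cell 1, 12 in cell 2 and 4 in cell 3, against 38.2%, 32% and 29.8% of all genes so detected.

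It was next asked whether paralogs that serve the same step were expressed together. Differences were taken within each cell as log2(FPKM + 1) and tested over the 3 cells by flipping their signs (exact permutation test, two-sided), which cannot give a p under 0.25, so no pair could pass 0.05. Of 8 pairs planned, 6 could be run. Snap25 was at 426 to 719, whereas its paralog Snap24 was listed at 0 in all cells (3 fragments would give an FPKM of 0.245 to 0.260). Syx1A exceeded Syx4, a syntaxin that is not restricted to neurons, in every cell. Syx4 was at 0.545, 0 and 18.6. The NSF gene comt exceeded Nsf2 in every cell, by a ratio of 19.1 in cell 2 and 2.72 in cell 3. Frq1 exceeded Frq2 in every cell, with ratios of 65.6, 6.25 and 96.3 and a mean log2 difference of 4.67 ± 1.80 (SD, n = 3). Each of these 4 differences had an exact permutation p of 0.25, and of 0.3 after Benjamini-Hochberg adjustment over the 6 pairs.

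The synaptotagmins were less far apart. Syt1 exceeded Syt7 by 0.81 ± 0.75 on the log2 scale, in 3 of 3 cells (exact permutation p = 0.25, adjusted 0.3), although in cell 1 the ratio was only 1.02. Between Syt1 and Syt4 the difference was 0.08 ± 0.84, and Syt1 was above Syt4 in 2 of 3 cells (p = 1 in the exact permutation test, 1 after adjustment). Without cell 2 this difference became -0.21 and without cell 3 it became -0.12. The order of Syt1 and Syt4 was thus not settled by these cells.

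**Figure D4:**
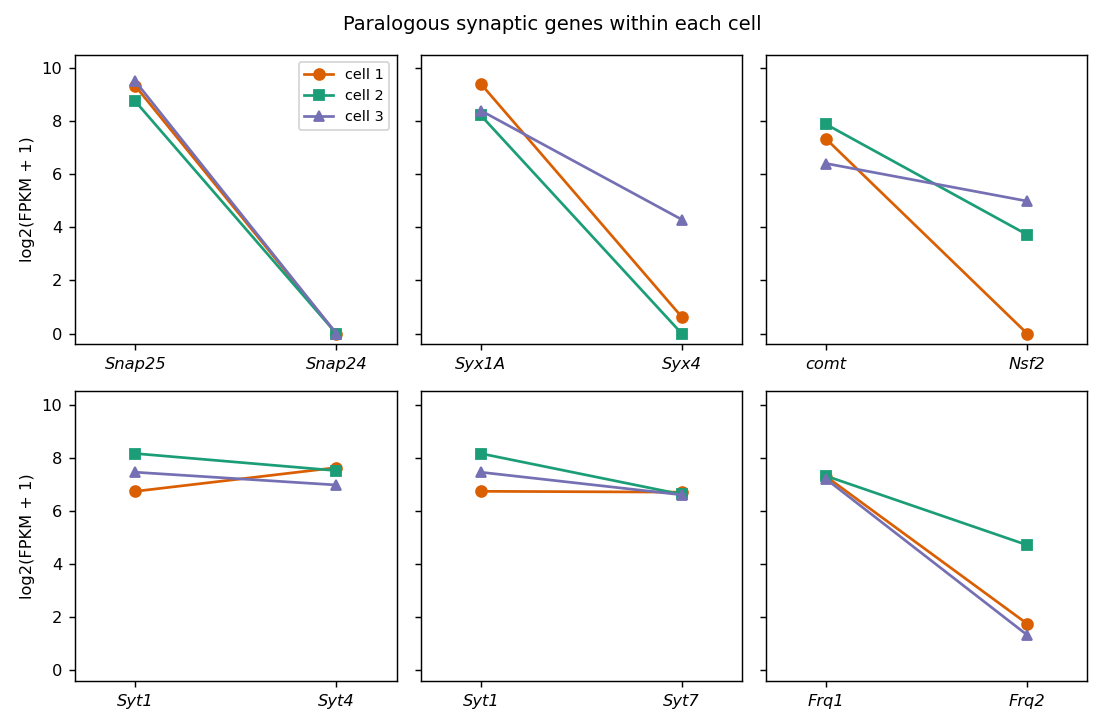
Levels of 6 pairs of related synaptic genes as log2(FPKM + 1), each line joining the values of 1 cell. Snap25, Syx1A, comt and Frq1 lie above their partner in all 3 cells, whereas the lines of Syt1 and Syt4 cross.

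The members tended to have longer genes than the rest, a feature that the choice of the list did not use, although single members ranged from 2.28 to 23.3 kb of exon and from 1 to 21 transcripts. Their median exon length was 6.18 kb, against 1.67 kb over the 11794 annotated genes, and their median gene span was 24.2 kb against 2.05 kb. They had a median of 5 annotated transcripts, where the median of all genes was 1. Active zone genes were the longest, with a median exon length of 13.2 kb, and fusion genes the shortest at 3.09 kb. Spearman's correlation of mean transcript length with mean level was -0.52 across the 23 members detected in all 3 cells and -0.42 across the 3665 annotated genes detected in all 3 cells. Long transcripts were thus lower in general, and whether the low median of the active zone genes lies in their length was not tested. Of the 13 members with at least the median exon length, 11 were detected in all 3 cells, against 56.8% of the 703 genes at least as long.

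**Figure D5:**
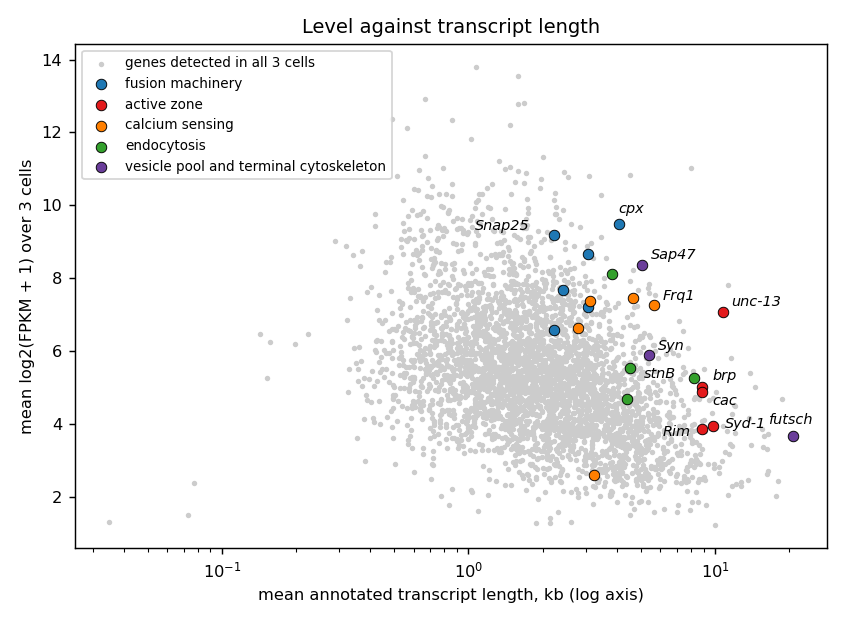
Mean level over the 3 cells, as log2(FPKM + 1), against mean annotated transcript length in kb on a log axis, for the 23 synaptic genes detected in all 3 cells (coloured by role) and all genes detected in all 3 cells (grey). The synaptic genes lie to the right, and unc-13 stands above the other long genes brp, cac, Rim, Syd-1 and futsch.

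Other genes of the same pathway were then counted from a wider list. Of 73 further genes listed, 51 were analysed, and 41 of these were detected in all 3 cells (31.1% of all genes). Without cell 1, 49 of the 51 and 25 of the 26 members were detected in both remaining cells, as were 41.7% of all genes. The median log2 range between cells was 1.501 over the 51 genes and 0.99 over the 26 members. It was 1.59 over genes detected in all 3 cells and 2.41 over genes above 0 in at least 1 cell. The 51 genes were not matched to the members by level, with a median mean log2 level of 5.27 against 6.24. Ranges were narrower at higher level, so the lists cannot be compared in steadiness from these medians. Of 5 further synaptotagmins, 3 were detected in all 3 cells, and the highest was Sytalpha at 104.1, 59.9 and 60.7. Of 13 further SNAREs, 10 were, led by Syx6, a syntaxin of the Golgi and endosomes, at 211, 87.3 and 134. Syb, the broadly used synaptobrevin, was at 121, 71.3 and 27.7.

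Of 15 further release and trafficking genes, 12 were detected in all 3 cells, as were 31.1% of all genes. The vesicle GTPase gene Rab3 was at 263, 222 and 181, and Gdi, which recycles such GTPases, was at 249, 277 and 279. The kinesin gene unc-104, whose motor carries vesicle precursors down the axon, was at 52.0, 149 and 106, lowest in cell 1. Of 10 further endocytic genes, 9 were detected in all 3 cells, led by the adaptor subunit gene AP-2sigma at 292, 310.4 and 229.7 and the clathrin light chain gene Clc at 187, 210.3 and 313. Of 8 vesicle membrane proteins, 7 were, and the highest was the tetraspanin gene Tsp42Ee at 944, 333 and 739. The loader of monoamines, Vmat, was at 154, 71.2 and 95.4. The loaders of other transmitters were detected in all 3 cells as well. VGAT, which loads GABA, had FPKM values of 92.8, 16.7 and 70.9. VAChT, which loads acetylcholine, had 30.97, 85.2 and 76.3. VGlut, the glutamate loader, which the naming rule did not select and which was added after its values were seen, had 18.4, 50.3 and 43.1.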

How the data were processed

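RNA of AKHR+ cells was amplified by a SMART-type protocol and sequenced, and 3 libraries are analysed here. The paper gives a larger number of cells for its single-cell expression figure. The authors trimmed and filtered the reads, mapped them to the fly genome, kept mapped reads and deposited FPKM per gene. The submitters' processing notes name HISAT, and the quantifier, genome build and annotation are not given in the sources used here. No molecular identifiers are described, so intervals and floors cover counting error only. Because FPKM is not a count, no count-based model was fitted. Each file held 12180 lines for 11922 gene IDs. The 117 IDs on more than 1 line (375 lines) were averaged, and 0 of them were members. The file of cell 3 has a different sample number in its header, and cells are numbered by their labels.

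The annotation of Ensembl release 115 (BDGP6.54) gave coordinates, lengths and, for 11794 IDs, symbols. Depth was found as the step that best placed low values (up to 10 fragments) of single-transcript genes on whole numbers. With the step chosen on genes of even ID, 60.9%, 40.2% and 54.1% of the 87, 82 and 98 values of odd ID lay within 0.1 of a whole number in cells 1, 2 and 3, where 20% would by chance. Fragments per gene use the mean transcript length, with 95% exact Poisson intervals and a floor of 3 fragments. The members, gene lists and tests were chosen with earlier results of these data known, and the comparison of ranges by level was added after the values were seen. All analysed members are named, and of the wider lists at most the 5 highest of each, besides paralogs in a planned pair. Percentiles place a gene among all genes of its cell, ties at mid rank. With 3 cells of a single group, only paralog pairs were tested. A p of 0.25 records that the difference had the same sign in all 3 cells, whatever its spread. Alternatives were each cell left out, a pseudocount of 0.1 in place of 1, other detection thresholds, rescaling to a common sum, summed lines and a filter on low values. Python 3.11.15, numpy 2.4.6, pandas 2.3.3 and scipy 1.17.1 were used. The functions were tested on simulated data.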

Additional observations from a re-analysis of the deposited data

How the results depend on the processing

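With all 3 cells kept, the number of members detected in each of them was 20 to 23, and that of the other synaptic genes 33 to 45. Without cell 1, 25 members and 49 other synaptic genes were detected in both remaining cells. The share of all genes moved too, from 20.6% in all 3 cells at an FPKM of at least 10 to 41.7% without cell 1. The difference between Syt1 and Syt4 reversed when cell 2 or cell 3 was left out, and ranged from -0.21 to 0.56 over the 3 fits that each left out a cell. The other 5 paralog pairs kept their direction under each alternative run, which with 3 cells shows nothing about stability. The median range of members was 0.62 to 0.74 with a cell left out, since 2 cells span less than 3. The median level went from 6.24 to 7.18 when each cell was rescaled to a common, larger sum, which raises all genes, and to 6.62 without stnA and stnB, a setting chosen after seeing the data. The pairs of nSyb with Syb and of alphaSnap with gammaSnap1 were not run. No paired analysis was possible because all 3 cells form 1 group, so pairing was limited to genes of the same cell. For Snap24 and the members listed at 0, depth allows statements about floors at most, and for stnA not even these, since its 0 in cell 1 depends on how fragments shared with stnB were divided.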
